A study of Rattus norvegicus with 24 samples.

Results

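The silica by smoke interaction asks whether the lung of a rat that inhaled both crystalline silica and cigarette smoke carried a transcript at the level that the single exposures would predict. It was computed for every gene as (combined minus smoke) minus (silica minus air) over all 24 libraries, 6 in each of 4 groups, and 13322 of 30043 genes had enough counts to be tested. All animals were male Fischer 344 rats (F344/DuCrl), 3 months old at purchase and housed 2 per cage, and a piece of lung was taken after a 29-week schedule of whole-body inhalation. Air controls breathed air throughout. The silica group received Min-U-Sil5 crystalline silica at 15 mg/m3, 6 hours a day for 5 days, in week 3 and air otherwise. The smoke group was exposed to cigarette smoke for 3 hours on 2 days a week, at 40 mg/m3 in week 1 and at 80 mg/m3 from week 2, with air in week 3. The combined group had silica in week 3 and smoke in the other weeks, with 45 mg/m3 rather than 40 mg/m3 in week 1. Ribosomal RNA was depleted from total RNA before stranded libraries were made, and the values are read counts per gene.

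Inhaled crystalline silica is taken up by alveolar macrophages, in which the particles damage the phagolysosome and set off inflammasome activation, chemokine release, neutrophil influx and, with time, lipoproteinosis and fibrosis. Cigarette smoke loads the same macrophages and the airway epithelium with oxidants and aromatic hydrocarbons. Synergy and antagonism depend on the scale on which the effects are joined. A log2 interaction of 0 means that the fold changes multiply, whereas a linear difference of 0 means that the increments in CPM (counts scaled to a common library total) add up. A gene that silica raises and smoke barely moves is expected at almost the same level on both scales, and a gene that both raise is expected at a higher level when fold changes multiply. In bulk lung, fewer cells of a type and less RNA per cell cannot be told apart.

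Some libraries stood apart. Total counts ran from 21629 in smoke 2 to 4687805 with a median of 2335358, and the next shallowest library after smoke 2 was silica 4 with 280484. Silica 4, where 1 count was worth 3.59 CPM, was kept throughout, and the linear test gave it the same weight as deeper libraries. It set the silica extremes of Cxcl6 (43.1 CPM, 12 counts), Gnao1 (28.7 CPM, 8 counts), Gsdmd (25.1 CPM, 7 counts) and Duox1 (17.9 CPM, 5 counts). The same library held the silica maxima of Cxcl1 (86.1 CPM, 24 counts), Retnla (219 CPM, 61 counts) and Lpar3 (35.9 CPM, 10 counts). Haemoglobin genes took 56.0% of the counts in smoke 2 and between 0.249% and 1.54% in the other 23, and 1 count in smoke 2 was worth 53.0 CPM. The library labelled silica 1 had no count of Lpo (lactoperoxidase, an airway defence enzyme) and 79.5 CPM of the chitinase Chia, against minima of 35.9 CPM and 637 CPM among the 5 remaining silica libraries. The library labelled smoke 1 had 45.0 CPM of Lpo and 651 CPM of Chia, while no other smoke library was above 1.47 CPM and 227 CPM. These libraries go against their labels on the genes that separate silica from no silica in the others, and why was not tested. Air 6 had 4.92 CPM of Ddit4 against at least 56.8 CPM in the other air libraries, and 461 CPM of Col1a1 against at most 119 CPM. Results are therefore given with all 24 libraries, with the 21 left after dropping silica 1, smoke 1 and smoke 2, and, where it changes a call, with the 20 left when air 6 is dropped as well. Silica 1 and smoke 1 were set apart by silica-responsive genes such as Chia and Lpo, and air 6 by genes such as Ddit4. Calls and separations of such genes in the smaller sets are not independent of that choice. CPM ranges of single genes below leave out silica 1, smoke 1 and smoke 2 unless these libraries are named.

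With all 24 libraries the main test called no gene as departing from multiplied fold changes. Under edgeR's quasi-likelihood test 0 genes were called above and 0 below the multiplicative expectation at an adjusted p under 0.05, which is 0% of the genes tested in each direction. At an unadjusted p under 0.05 there were 977 genes, or 7.33%, with 520 above and 457 below, and the smallest adjusted p was 0.178. DESeq2 called 1 gene (Alb), limma voom called 0, and limma voom with quality weights called 9. The 9 were Gsdmd, Nup93 and Ppil1 above and Cwc25, Gnao1, Klf10, Prdm1, Sox18 and Synpo below. The test was wider than that of a single exposure: the median standard error (SE) of the log2 interaction was 0.21, against 0.14 for silica minus air. The 95% interval of the interaction lay within -1 and 1 on the log2 scale for 10911 genes, 81.9% of those tested, and reached further for the rest. Additivity of linear CPM, tested with limma, gave 0 calls in each direction (0%) as well, with 708 genes at an unadjusted p under 0.05, of which 671 lay above and 37 below.

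The split was near even without the 3 libraries, where 644 genes lay above and 553 below additivity at an unadjusted p under 0.05, and 4 genes were called above (0.0293% of 13666 tested) and 7 below (0.0512%). The 4 above were Chia, Kng1, Retnla and Gsdmd, and the 7 below were Cxcl1, Cxcl6, Klf10, Prdm1, Synpo, Gnao1 and Lpar3. The log2 interaction on these 21 libraries still called 0 genes in each direction (0%) with edgeR, with 1205 genes (8.82%) at an unadjusted p under 0.05 and a smallest adjusted p of 0.0734. On the same 21 libraries DESeq2 called 4 genes above and 17 below, limma voom called 0, and limma voom with quality weights called 17 above and 30 below. Among the genes that DESeq2 and the weighted fit both called were Gnao1, Klf10, Prdm1, Synpo and Rnaset2. The weighted fit, but not DESeq2, called Gsdmd and Sox18. When air 6 was dropped too, edgeR called 11 genes above (0.0814% of 13518) and 8 below (0.0592%) on the log2 scale, and limma called 14 above (0.104%) and 7 below (0.0518%) on the linear scale. All 11 linear calls of the 21 libraries were among the 21 linear calls of the 20 libraries, and 5 of the 11, Gnao1, Gsdmd, Klf10, Prdm1 and Synpo, were also among the 19 log2 calls. No linear call of the 21 libraries outlasted every further removal of 1 library: Cxcl6 was lost only without smoke 4 (adjusted p 0.0513, limma), Kng1 without smoke 4 or smoke 6, and the others in 8 to 18 of 21 removals, with estimates that kept their direction.

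**Figure D1:**
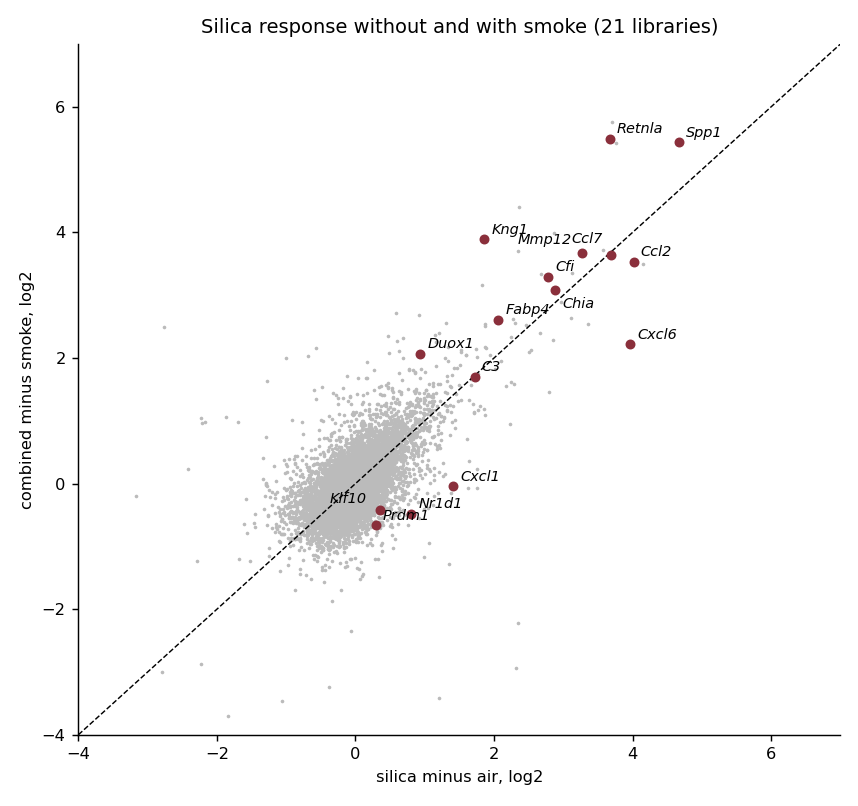
Log2 silica minus air (horizontal axis) against log2 combined minus smoke (vertical axis) in 21 libraries for 13666 genes (grey; 4 lie outside the plotted range), with named genes in red and the dashed line where silica did the same with and without smoke. Cxcl1, Klf10, Prdm1 and Nr1d1 sit below the line and Kng1, Retnla and Duox1 above it, while Chia, C3, Ccl7 and Mmp12 lie near it.

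Silica minus air and combined minus smoke use different libraries, and over 13666 genes their log2 values correlated with Pearson's r = 0.63 and Spearman's rho = 0.58, a description across genes that are not independent replicates and that share libraries and depth within each step. The spread was larger with smoke (SD 0.46) than without (SD 0.40). In number, edgeR called 815 genes higher and 799 lower for silica minus air in the 21 libraries, and 1353 and 1398 for combined minus smoke; with all 24 libraries the counts were 287 and 135, and 978 and 742. A difference in such counts is not a test of the interaction, and group sizes differ (5 silica, 4 smoke, 6 air and 6 combined libraries of the 21).

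The neutrophil chemokines Cxcl1 and Cxcl6 stood lower after both exposures than after silica alone. Both are CXC ligands that draw neutrophils through CXCR2 and are classic NF-kB targets, and their promoters are shown because both chemokines were called below additivity. The 250 bases before the start of each gene are from RefSeq on GRCr8, and both lie on the minus strand, Cxcl1 at chr14:17479322-17479571 and Cxcl6 at chr14:17596418-17596667. Capitals mark matches, on either strand, to an NF-kB motif spelled as 3 G, any 3 bases and then TTCC.
Cxcl1: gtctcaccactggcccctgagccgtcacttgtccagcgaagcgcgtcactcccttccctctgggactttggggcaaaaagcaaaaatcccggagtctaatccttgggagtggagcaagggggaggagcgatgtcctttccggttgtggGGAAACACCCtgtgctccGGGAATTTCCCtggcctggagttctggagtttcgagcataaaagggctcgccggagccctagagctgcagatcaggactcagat
Cxcl6: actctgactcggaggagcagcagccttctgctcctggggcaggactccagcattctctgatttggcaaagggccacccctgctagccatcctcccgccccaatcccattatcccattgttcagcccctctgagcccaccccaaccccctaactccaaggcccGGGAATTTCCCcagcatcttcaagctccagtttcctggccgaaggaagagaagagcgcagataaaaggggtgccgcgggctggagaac
The run GGGAATTTCCC, in which matches on both strands overlap, is present in both windows, and Cxcl1 holds a further match. Of 27457 rat promoter windows of this length, 4.53% hold the motif. Of the 11 genes called on the linear scale, 9 have a window in the table, and Cxcl1 and Cxcl6 are the 2 that hold it. Nfkbia and Rnaset2, which were called above expectation with 20 libraries, hold it too. Of the other log2 calls with 20 libraries, Ddit4, Fgg, Fzd4, Lrp2, Nr1d1, Rgcc, Tsc22d3, Zc3h12a, Gnao1, Prdm1 and Synpo have a window without it. The rest have no window in the table. A match is a description of the letters and not evidence of binding.

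Cxcl6 ranged from 0.205 to 4.88 CPM in air (median 2.63), from 33.2 to 43.1 CPM in the 5 silica libraries kept (median 35.8), from 1.48 to 5.90 CPM in the 4 smoke libraries kept (median 5.04) and from 12.4 to 25.3 CPM in the combined group (median 20.9). Among the 21 libraries the combined libraries lay entirely above air and smoke and entirely below silica. Of the libraries left out, silica 1 was at 4.11 CPM, smoke 1 at 34.7 CPM and smoke 2 at 0 CPM. This separation therefore follows in part from leaving them out. The additive expectation was 39.1 CPM and the combined mean 20.3 ± 4.32 CPM (SD, n = 6), a difference of -18.8 ± 2.93 CPM (SE; adjusted p = 0.0131, limma). On the log2 scale Cxcl6 rose 3.96 ± 0.29 with silica in air and 2.22 ± 0.32 with silica in smoke (adjusted p = 2.2e-10 and 2.1e-05, edgeR). Their difference of -1.74 ± 0.49 was not called by edgeR with 21 libraries (adjusted p = 0.244) nor with 24, where it was -2.88 ± 0.76 (adjusted p = 0.339). On the 21 libraries DESeq2 called it (adjusted p = 0.0425), as it did that of Cxcl1 (adjusted p = 0.0328).

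Cxcl1 ranged from 12.1 to 39.6 CPM in air (median 25.9), 54.4 to 86.1 CPM in silica (median 65.8), 21.5 to 45.3 CPM in smoke (median 34.9) and 24.8 to 45.1 CPM in the combined group (median 30.4). Among the 21 libraries silica alone stood clear of the rest, and combined libraries overlapped both air and smoke. Of the libraries left out, silica 1 was at 23.3 CPM and smoke 1 at 56.5 CPM. The combined mean was 32.8 ± 7.58 CPM (SD, n = 6) against an additive expectation of 77.2 CPM, a difference of -44.3 ± 8.05 CPM (SE; adjusted p = 0.0285, limma). Cxcl1 rose 1.41 ± 0.23 (log2) with silica in air (adjusted p = 0.00013, edgeR), while silica in smoke gave -0.05 ± 0.25 (adjusted p = 0.93). A called step beside an uncalled step is not a test of their difference. That difference, the log2 interaction of Cxcl1, was not called by edgeR with 21 libraries. On the same libraries DESeq2 called it, at -1.48 ± 0.35 (adjusted p = 0.0328), and limma voom did not, with or without quality weights. The linear call was lost in 8 of 21 removals, without air 3, air 4, smoke 4, smoke 5, smoke 6, combined 2, combined 3 or combined 5, with differences between -48.2 and -39.7 CPM and adjusted p up to 0.0794. Cxcl2, another ligand of the same receptor chosen after its values were seen, had a log2 interaction of -1.28 ± 0.66 (adjusted p = 0.577, edgeR). The more abundant CXC chemokine Cxcl3 ranged from 345 to 1162 CPM in air, 1164 to 1489 in silica, 747 to 1008 in smoke and 1070 to 1467 in the combined group. Its combined libraries overlapped silica and lay above every smoke library kept. Of 19 chemokine and cytokine genes tested, 5 had a positive log2 interaction and the median was -0.22, against 0.01 over all genes, with 0 genes at an unadjusted p under 0.05 above and 3 below.

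Ccl2 and Ccl7, which recruit monocytes through CCR2, were at 61.2 ± 10.2 and 23.6 ± 3.66 CPM in the combined group against additive expectations of 42.4 and 15.7 CPM. Their linear differences of 18.8 ± 5.89 and 7.86 ± 2.51 CPM were not called (adjusted p = 0.361 and 0.383, limma). On the log2 scale the same genes were at -0.48 ± 0.43 and -0.05 ± 0.35, so that Ccl2 lay above the additive and below the multiplicative expectation of 86.7 CPM. Il1b, the inflammasome cytokine, was at -0.35 ± 0.21 and the neutrophil alarmins S100a8 and S100a9 at -0.19 ± 0.34 and -0.47 ± 0.29 on the log2 scale, none of them called. Of 11 neutrophil markers tested, 3 had a positive log2 interaction, the median was -0.28, and 2 had an unadjusted p under 0.05, both below.

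**Figure D2:**
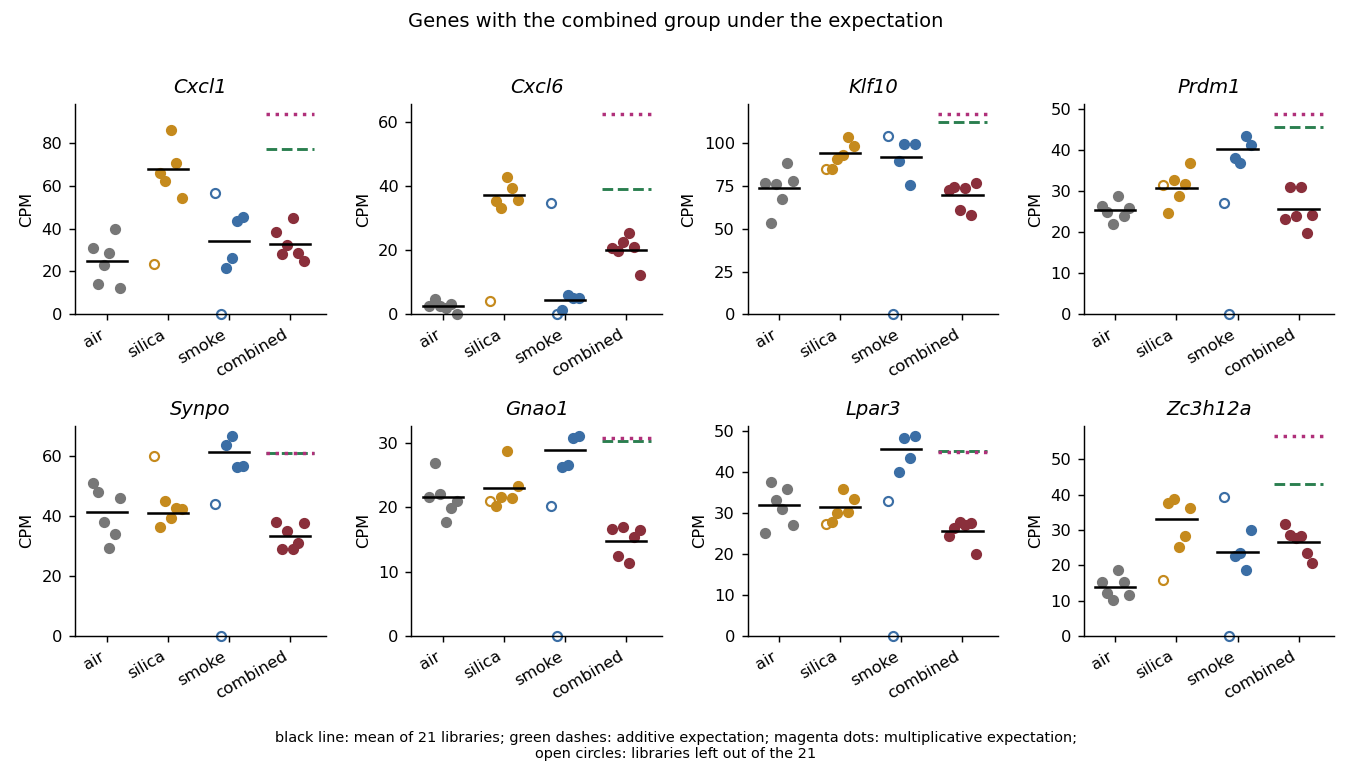
CPM in each of 24 libraries (vertical axis) by group (horizontal axis) for 8 genes, with open circles for the 3 libraries left out, black lines at the means of the other 21, and green dashes and magenta dots at the additive and multiplicative expectations for the combined group. Combined means lie under both expectations in all 8, at 20.3 CPM against 39.1 CPM (additive) for Cxcl6 and at 69.5 CPM against 112 CPM for Klf10.

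Klf10, Prdm1, Spry4 and Zc3h12a had higher means after either exposure alone than in air, and lower means after both than after silica alone. Klf10, a TGF-beta-inducible zinc finger repressor, ranged from 53.2 to 88.6 CPM in air, 85.0 to 104 CPM in silica, 75.6 to 99.6 CPM in smoke and 58.3 to 77.0 CPM in the combined group. Combined libraries overlapped air and only the lowest smoke library, while silica libraries lay above every combined one. The linear difference was -42.7 ± 8.48 CPM (SE; adjusted p = 0.0415, limma) and the log2 interaction -0.77 ± 0.15 (adjusted p = 0.0734 with 21 libraries, 0.022 with 20, edgeR), and with all 24 libraries the log2 value was the same, -0.77 ± 0.16 (adjusted p = 0.178). Prdm1, which encodes the repressor Blimp-1 of lymphocytes and myeloid cells, had means of 25.5 ± 2.33 CPM in air, 30.8 ± 4.52 in silica, 40.3 ± 3.03 in smoke and 25.5 ± 4.51 in the combined group (SD; n = 6, 5, 4 and 6). The 4 smoke libraries kept, at 36.9 CPM and above, lay clear of every combined library (31.0 CPM at most) for Prdm1. Smoke 1 and smoke 2, left out, were at 27.1 and 0 CPM. The linear difference was -20.1 ± 3.69 CPM (adjusted p = 0.0285, limma) and the log2 interaction -0.95 ± 0.18 (adjusted p = 0.0734 with 21 and 0.0214 with 20 libraries, edgeR). Spry4, a feedback inhibitor of receptor tyrosine kinase signalling, had means of 48.1, 53.5, 66.5 and 39.6 CPM in air, silica, smoke and combined, with a log2 interaction of -0.90 ± 0.20 that edgeR did not call with 21 libraries (adjusted p = 0.111). DESeq2 and voom with quality weights called it on the same libraries (adjusted p = 0.0328 and 0.0439). Zc3h12a, the ribonuclease regnase-1 that degrades cytokine mRNAs, rose with silica (1.30 ± 0.16, adjusted p = 2.6e-06) and with smoke (0.79 ± 0.17, adjusted p = 0.047, edgeR). It had means of 14.0, 33.2, 23.9 and 26.7 CPM in air, silica, smoke and combined. Its combined libraries (20.7 to 31.8 CPM) lay above every air library (18.7 CPM at most). Its log2 interaction was -1.14 ± 0.23 (adjusted p = 0.0734 with 21 and 0.0339 with 20 libraries, edgeR). On the 21 libraries DESeq2 and voom with quality weights called it (adjusted p = 0.0136 and 0.0291). The 20-library log2 calls of Zc3h12a and Klf10 were lost in 12 and 5 of 20 further removals, and that of Prdm1 only without silica 6 (adjusted p 0.0769).

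In a further set the combined group had the lowest mean. Synpo (synaptopodin, an actin-binding protein) ranged from 29.4 to 51.0 CPM in air, 36.2 to 44.9 in silica, 56.4 to 66.7 in smoke and 28.8 to 38.1 in the combined group. Among the 21 libraries the smoke libraries were the highest without overlap, and combined libraries overlapped the lower part of air and silica. Of the libraries left out, silica 1 was at 59.8 CPM, smoke 1 at 44.0 CPM and smoke 2 at 0 CPM. The linear difference was -27.8 ± 5.27 CPM (adjusted p = 0.0336, limma) and the log2 interaction -0.89 ± 0.18 (adjusted p = 0.0739 with 21 and 0.0214 with 20 libraries, edgeR). Gnao1, a G protein alpha subunit, was at 17.8 to 26.9 CPM in air, 20.1 to 28.7 in silica, 26.3 to 31.1 in smoke and 11.3 to 16.9 in the combined group, with no combined library reaching any other group. Its linear difference was -15.4 ± 2.94 CPM (adjusted p = 0.0336, limma). Lpar3, a lysophosphatidic acid receptor, was at 25.6 ± 2.92 CPM in the combined group against 31.4 to 45.6 CPM in the means of the others, with a linear difference of -19.6 ± 3.84 CPM (adjusted p = 0.0392, limma). Each of the 3 fell when silica was added to smoke (adjusted p = 1.9e-05 for Synpo, 2e-05 for Gnao1 and 1.5e-05 for Lpar3, edgeR). Silica minus air was 0.01 ± 0.13, 0.03 ± 0.13 and -0.05 ± 0.12 on the log2 scale for the same genes. The linear calls of Klf10, Synpo, Gnao1, Prdm1 and Lpar3 were lost in 15, 13, 13, 11 and 18 of 21 removals of a library, with adjusted p up to 0.145, 0.123, 0.109, 0.0794 and 0.145. Sox18, an endothelial transcription factor chosen after its values were seen, also had its lowest mean in the combined group, with a log2 interaction of -0.86 ± 0.21 with 21 libraries (adjusted p = 0.134) and -0.98 ± 0.18 with 20 (adjusted p = 0.0214, edgeR). Voom with quality weights called Sox18 with 24 and with 21 libraries (adjusted p = 0.0133 and 0.0161). With 24 libraries the smallest linear p-values below additivity included those of Myl12b, Tinf2, Cxcl1 and Rb1, at -69.3, -16.3, -34.9 and -58.7 CPM, all with an adjusted p of 0.806 (limma).

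**Figure D3:**
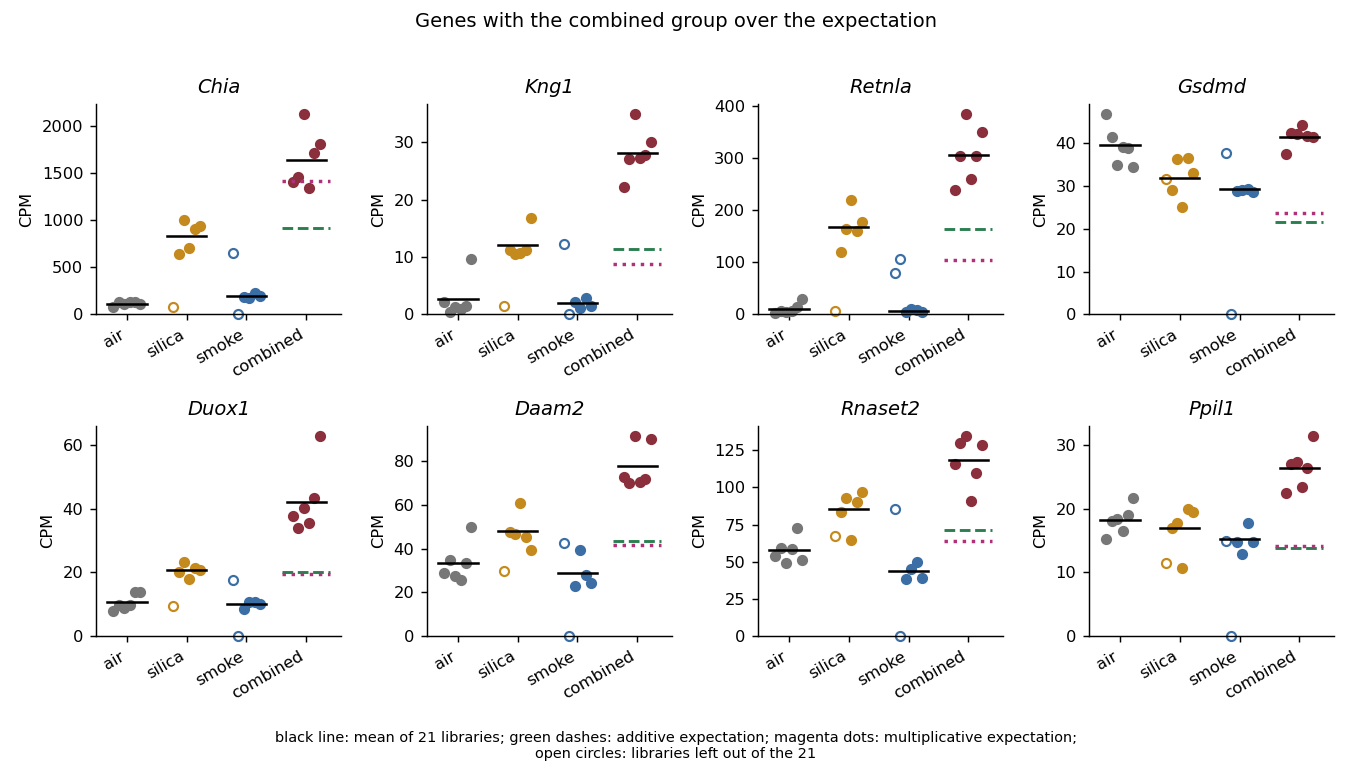
CPM in each of 24 libraries (vertical axis) by group (horizontal axis) for 8 genes, drawn as in the plot of genes below expectation, with open circles for the 3 libraries left out. Combined means lie over both expectations in all 8; for Chia the multiplicative expectation of 1416 CPM is close to the combined mean of 1640 CPM, while for Gsdmd the combined mean of 41.4 CPM only matches air at 39.5 CPM.

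Among the genes called above additivity with 21 libraries, the largest increment in CPM was that of Chia, an acidic chitinase made by macrophages and epithelium. It ranged from 82.0 to 129 CPM in air (median 119), 637 to 1004 CPM in silica (median 907), 171 to 227 CPM in smoke (median 186) and 1341 to 2127 CPM in the combined group (median 1586). None of the 4 groups overlapped another among the 21 libraries. Silica 1 (79.5 CPM) and smoke 1 (651 CPM) were set apart by Chia among other genes, so this separation follows in part from leaving them out. Chia rose further when smoke was added to silica (0.96 ± 0.13 on the log2 scale, adjusted p = 0.00013, edgeR). The combined mean exceeded the additive expectation of 915 CPM by 726 ± 134 CPM (SE; adjusted p = 0.0285, limma). The log2 interaction was 0.21 ± 0.19 (95% interval -0.18 to 0.60, adjusted p = 0.797, edgeR), so that Chia was above addition and not distinguishable from multiplication. With all 24 libraries the values were 809 ± 189 CPM (adjusted p = 0.585) and -0.09 ± 0.50. The linear call was lost in 9 of 21 removals, without air 3, air 4, air 5, silica 2, smoke 3, smoke 4, smoke 5, smoke 6 or combined 5, with differences of 633 to 798 CPM and adjusted p up to 0.0782.

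Several macrophage and complement genes lay above addition without a call with 21 libraries. Spp1 (osteopontin) was at 91.9 ± 24.8 CPM in silica, 3.87 ± 1.94 in smoke and 175 ± 52.1 in the combined group, 82.2 ± 22.8 CPM above additivity (adjusted p = 0.233, limma) with a log2 interaction of 0.77 ± 0.66. Cfi, the complement factor I protease, was 45.0 ± 9.31 CPM above additivity (adjusted p = 0.0624 with 21 libraries, 0.0399 with 20, limma). The call with 20 was lost in 14 of 20 further removals. Chi3l1, a chitinase-like protein, was 150 ± 33.4 CPM above (adjusted p = 0.102), Fabp4, a lipid carrier of macrophages, 32.5 ± 8.13 (adjusted p = 0.175), Mmp12, macrophage elastase, 27.6 ± 10.3 (adjusted p = 0.47), and Lpo 30.3 ± 7.01 (adjusted p = 0.123, limma). C3, the central complement component, was at 2338 ± 175 CPM in the combined group, between the additive 2012 CPM and the multiplicative 2371 CPM, with a log2 interaction of -0.02 ± 0.19 (95% interval -0.41 to 0.38). With all 24 libraries the log2 values of Chia, Spp1, Mmp12 and Cfi were negative (-0.09, -0.39, -0.68 and -0.06), and without the 3 libraries they were positive (0.21, 0.77, 0.39 and 0.52), none of them called.

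Retnla and Kng1 had combined means over both expectations, and only the departure from addition was called. Retnla, a secreted marker of alternatively activated macrophages and epithelium, ranged from 3.15 to 29.7 CPM in air, 119 to 219 in silica, 3.57 to 10.3 in smoke and 238 to 385 in the combined group, with combined libraries above all others. Its combined mean was 143 ± 26.1 CPM above additivity (adjusted p = 0.0285, limma), and its log2 interaction was 1.82 ± 0.54 (adjusted p = 0.263, edgeR). Kng1, which encodes kininogen, the precursor of bradykinin, ranged from 0.488 to 9.63 CPM in air, 10.5 to 16.7 in silica, 1.11 to 2.85 in smoke and 22.2 to 34.9 in the combined group. Kng1 rests on few counts: 1 to 4 in each library from air 1 to air 5, 3 to 6 in the smoke libraries kept and 3 in silica 4. It was 16.8 ± 2.80 CPM above additivity (adjusted p = 0.0185, limma), with a log2 interaction of 2.03 ± 0.67 that was 0.67 ± 0.51 without air 6, the highest air library at 9.63 CPM. Without air 6 the log2 value of Retnla was 1.03 ± 0.42, and the linear calls of both genes were kept. The Retnla call was lost in 10 of 21 removals (adjusted p up to 0.0782), and that of Kng1 without smoke 4 or smoke 6 (up to 0.0513).

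Duox1, Daam2, Rnaset2 and Ppil1 had their highest mean in the combined group. Duox1, the epithelial oxidase that supplies hydrogen peroxide to lactoperoxidase, ranged from 7.88 to 13.9 CPM in air, 17.9 to 23.4 in silica, 8.51 to 10.7 in smoke and 34.0 to 63.0 in the combined group, without overlap between the combined and any other group. Its log2 interaction was 1.13 ± 0.26 (95% interval 0.59 to 1.67, adjusted p = 0.132, edgeR) and its linear difference 22.2 ± 4.89 CPM (adjusted p = 0.0981, limma), and neither was called. Silica raised Duox1 in air by 0.94 ± 0.18 and in smoke by 2.07 ± 0.19 on the log2 scale (adjusted p = 0.00091 and 1.2e-08, edgeR). Daam2, a formin of the Wnt pathway, had means of 33.5, 47.9, 28.9 and 77.6 CPM in air, silica, smoke and combined, with a linear difference of 34.2 ± 7.24 CPM (adjusted p = 0.0716 with 21 and 0.0496 with 20 libraries, limma). The latter call was lost in 16 of 20 further removals. Rnaset2, a lysosomal ribonuclease, had means of 57.8, 85.4, 43.4 and 118 CPM and a log2 interaction of 0.85 ± 0.16 (adjusted p = 0.0734 with 21 libraries, 0.0214 with 20, edgeR); the latter call was kept in all further removals of a library. Ppil1, a spliceosomal cyclophilin, had means of 18.3, 17.0, 15.2 and 26.4 CPM and a log2 interaction of 0.84 ± 0.20 (adjusted p = 0.132, edgeR). Arl6ip1 and Psmb3, a membrane-shaping protein of the endoplasmic reticulum and a proteasome subunit, were among the 5 smallest p-values above expectation with 24 libraries, at log2 0.43 ± 0.10 and 0.56 ± 0.14 (adjusted p = 0.278 and 0.334, edgeR).

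A positive interaction was not always a high combined level. Gsdmd, the pore-forming executor of pyroptosis, was at 34.4 to 46.8 CPM in air, 25.1 to 36.4 in silica, 28.5 to 29.3 in smoke and 37.4 to 44.1 in the combined group. Single-exposure means were lower than air and the combined libraries lay within the air range, above every silica and smoke library kept. The linear difference was 19.8 ± 3.84 CPM (adjusted p = 0.0361, limma) and the log2 interaction 0.73 ± 0.14 (adjusted p = 0.0734 with 21 and 0.0214 with 20 libraries, edgeR), and the linear call was lost in 14 of 21 removals (adjusted p up to 0.109). Ddit4, a stress-induced inhibitor of mTORC1, had means of 63.8 ± 33.1, 31.2 ± 5.99, 27.7 ± 6.02 and 33.9 ± 6.22 CPM in air, silica, smoke and combined, so that the additive expectation was -4.80 CPM, a level that cannot occur. Its log2 interaction was 1.27 ± 0.57 with 21 libraries (adjusted p = 0.518) and 1.55 ± 0.25 without air 6 (adjusted p = 0.00946, edgeR), and the latter call was kept in all further removals of 1 library. Air 6 was set apart by its Ddit4 value among others, so the call without it is conditional on that choice and gives no independent support. Nfkbia, the inhibitor of NF-kB, was at 313, 206, 207 and 209 CPM, with a log2 interaction of 0.61 ± 0.26 (adjusted p = 0.483) and, without air 6, 0.78 ± 0.14 (adjusted p = 0.0214, edgeR). Air 6 was also the lowest air library for Nfkbia, at 129 CPM. Tsc22d3 (GILZ), a glucocorticoid-induced regulator, fell with silica (-0.60 ± 0.13, adjusted p = 0.0022) and with smoke (-0.98 ± 0.13, adjusted p = 0.00023) while combined minus silica was -0.20 ± 0.13. Its log2 interaction was 0.78 ± 0.19 (adjusted p = 0.132 with 21 and 0.0286 with 20 libraries, edgeR). The latter call was lost in 6 of 20 further removals. On the 21 libraries DESeq2 and voom with quality weights called it (adjusted p = 0.0431 and 0.0186). Slc39a4, Lrp2, Rgcc, Fgg, Gramd2 and Cebpd were the other calls above on the log2 scale without air 6, at 0.53 to 1.04, and Fzd4 was a further call below, at -0.60. Of 20 further removals, the call was lost in 2 for Slc39a4, 5 for Fzd4, 13 for Gramd2 and 14 for Cebpd. For Lrp2, Rgcc and Fgg it was lost in 12 each. These 7 genes were chosen after their values were seen.

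**Figure D4:**
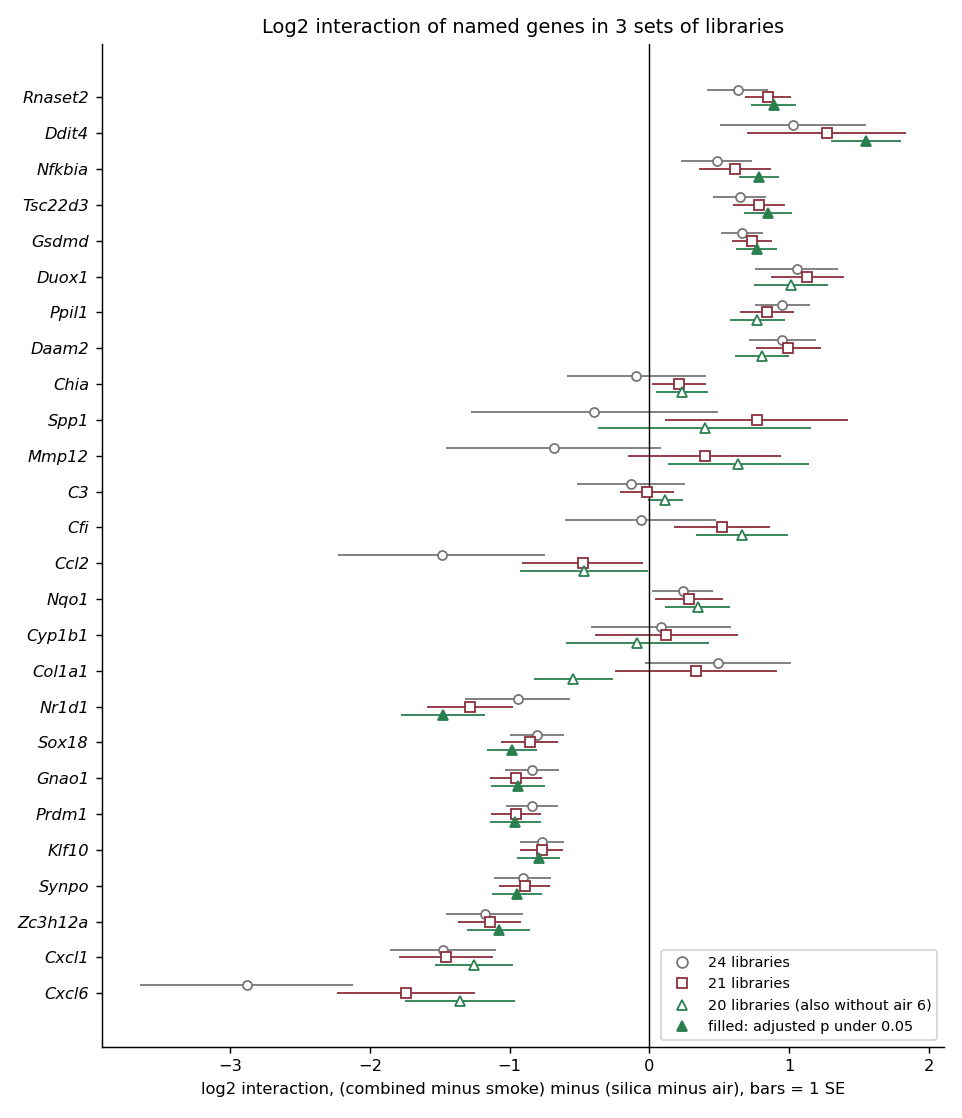
Log2 interaction (horizontal axis, bars of 1 SE) of 26 genes (vertical axis) with 24, 21 and 20 libraries, filled where the adjusted p was under 0.05. Gnao1, Prdm1, Klf10 and Synpo keep values between -0.77 and -0.96 in all 3 sets, while Spp1, Mmp12 and Col1a1 change sign between sets.

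With 21 libraries Nr1d1, the clock repressor REV-ERB alpha, rose with smoke by 2.71 ± 0.21 (adjusted p = 7.1e-09) and with silica by 0.80 ± 0.25 (adjusted p = 0.033, edgeR), with means of 9.68, 15.8, 64.2 and 47.5 CPM in air, silica, smoke and combined. Nr1d1 ranged from 52.1 to 74.5 CPM in the smoke libraries kept, and was at 23.5 CPM in smoke 1 and 0 CPM in smoke 2. Its log2 interaction was -1.28 ± 0.31 (adjusted p = 0.134) and, without air 6, -1.48 ± 0.30 (adjusted p = 0.0339, edgeR), a call lost in 7 of 20 further removals. On the 21 libraries DESeq2 and voom with quality weights called it (adjusted p = 0.0492 and 0.0387). Dbp, a clock output factor, was at 0.51 ± 0.30, and 5 of 18 clock genes had a positive value, with a median of -0.08. Cd163, the haemoglobin scavenger receptor of macrophages, and Zbtb16, a glucocorticoid-responsive factor, both fell with smoke (adjusted p = 0.039 and 0.0018, edgeR) and had interactions of 0.28 ± 0.38 and 0.17 ± 0.35. Nqo1 and Cyp1b1, targets of the aryl hydrocarbon receptor, were at 0.28 ± 0.24 and 0.12 ± 0.51, and Cyp1a1 did not pass the count filter, with 2.82 CPM at most outside air 6 and 28.7 CPM in air 6.

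Across the gene lists edgeR called no member on the log2 scale with 24 or 21 libraries. On the 21 libraries DESeq2 called the list members Cxcl1, Cxcl6, Nr1d1 and Tsc22d3, and voom with quality weights called Fgg, Nfkbia, Nr1d1 and Tsc22d3. Over all 13666 genes the median was 0.01, 6999 values were positive, and 610 had an unadjusted p under 0.05 above and 595 below. Cholesterol synthesis genes lay mostly above: 17 of 18 were positive, the median was 0.43, and 8 had an unadjusted p under 0.05 above and 0 below. The regulator Srebf2 was at 0.16 and Hmgcs1, an early enzyme of the pathway, at 0.70, or 0.28 without air 6, neither of them called. Immediate early genes lay mostly below: 2 of 18 were positive, the median was -0.61, and 6 had an unadjusted p under 0.05 below and 0 above. Egr1 and Nr4a1, transcription factors induced within minutes of a stimulus, were at -1.82 ± 0.72 and -1.33 ± 0.44 (adjusted p = 0.46 and 0.354, edgeR), and the abundant Dusp1 and Klf6 at -0.31 and 0.05. Egr1 ranged from 5.74 to 53.8 CPM within air and from 9.28 to 59.2 CPM within smoke, a spread that reached over the range of the combined group (6.57 to 23.3 CPM). Nr4a1, Egr1, Hmgcs1, C1qa, Gpx2, Mcm2 and Lpo were chosen after their values were seen.

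Complement and acute phase genes were positive in 17 of 23, with a median of 0.36 and 8 at an unadjusted p under 0.05 above and 0 below. C1qa, a subunit of the recognition molecule C1q, was at 0.72 and Cfb, factor B of the alternative pathway, at 0.36. The acute phase gene Lcn2 was at -0.06 ± 0.56. Targets of NRF2, the oxidant-response factor, were positive in 20 of 22 with a median of 0.29, 5 of them at an unadjusted p under 0.05, among which Gpx2, a glutathione peroxidase, was at 0.52, whereas Fth1, ferritin heavy chain, was at 0.03. Proliferation genes had a median of 0.75 with 14 of 15 positive (Mki67 0.80, Mcm2 0.91, Pcna 0.16), and the median was 0.29 without air 6. The 10 MHC class II genes were all positive with a median of 0.32 (Cd74 0.33), and the 8 B and plasma cell genes were all positive with a median of 0.55, or 0.15 without air 6. Markers of alveolar type 1 cells were positive in 2 of 11 (median -0.20) and endothelial markers in 3 of 14 (median -0.25), with 5 and 4 genes at an unadjusted p under 0.05, all below. Extracellular matrix genes were positive in 21 of 24 with a median of 0.28, which was 0.01 without air 6, and Col1a1 itself went from 0.33 ± 0.58 to -0.54 ± 0.28. Airway secretory and defence genes were positive in 11 of 16, with 4 at an unadjusted p under 0.05 above and 2 below. Their median was 0.29, or -0.04 without air 6. Against most of that list, the airway product Scgb1a1 (club cell secretory protein) had a log2 interaction of -0.75 ± 0.22 (adjusted p = 0.263, edgeR). It was at 1718 ± 508 CPM in the combined group and 2588 ± 234 CPM in smoke. The type 2 cell product Sftpc had a log2 interaction of 0.08 ± 0.17.

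**Figure D5:**
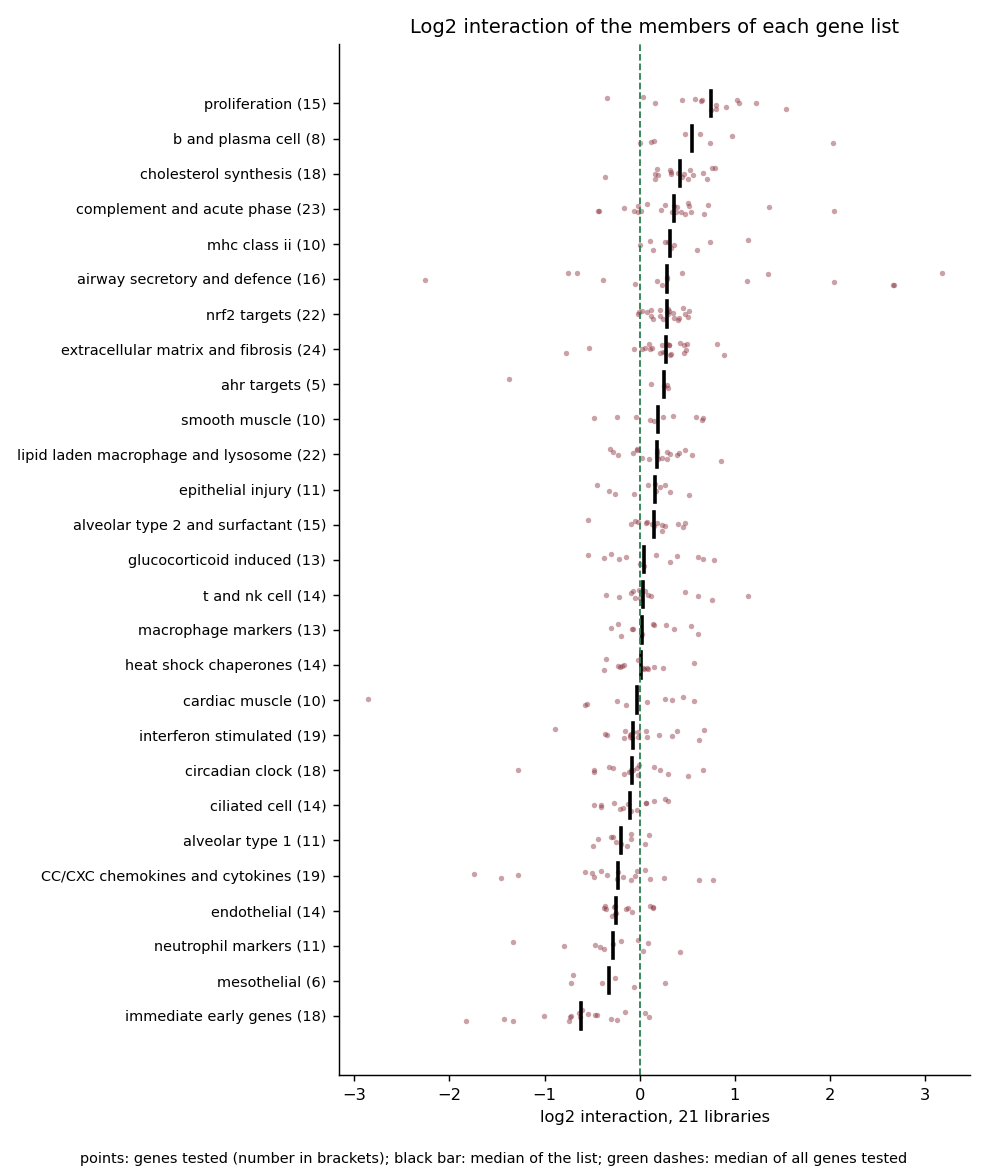
Log2 interaction in 21 libraries (horizontal axis) for the tested members (points) of each gene list with at least 5 tested genes other than the erythroid list (vertical axis, number tested in brackets), with the list median as a black bar and the median of all genes, 0.01, as green dashes. Cholesterol synthesis (median 0.43) and proliferation (0.75) lie to the right and immediate early genes (-0.61) to the left, with individual members spread widely in each.

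Red cell transcripts moved when the 3 libraries were left out, and Alb varied widely within the smoke and silica groups. All 10 erythroid genes were negative with 24 libraries (median -2.65), where smoke 2 held 351617 CPM of Hbb, and the median was -0.17 without the 3 libraries (Hbb -0.29 ± 0.43, Hba1 -0.20 ± 0.41). Alb, albumin, had the most negative log2 value among genes named with 24 libraries, -7.84 ± 1.66 (adjusted p = 0.178, edgeR). It was at 424 CPM in smoke 2, 46.0 CPM in smoke 1 and 1.11 to 3.33 CPM in the smoke libraries kept. It ranged from 0 to 35.9 CPM in silica, 0.748 to 8.40 CPM in air and 0 to 0.517 CPM in the combined group.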

How the data were processed

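The authors deposited 1 table of read counts per gene for the 24 lung libraries. Tools named, with no order or role (per the submitters' processing notes), are HISAT2 2.1.0, HTSeq 0.11.2, SAMtools 1.8, Cufflinks, Trimmomatic 0.35 and bcl2fastq 2.19. For the genome build, annotation and strand setting: not given in the sources used here. Of 30069 lines, 26 exact repeats were removed, leaving 30043 genes. Genes with a count of about 10 or more in enough libraries (filterByExpr) were kept, and totals were scaled by TMM. The log2 interaction and the single steps were fitted with edgeR 4.0.16 (quasi-likelihood, 1 mean per group, R 4.3.3). Additivity was tested with limma 3.58.1 on TMM-scaled linear CPM, with a prior variance that followed mean CPM. Both used Benjamini-Hochberg adjustment over all genes tested; DESeq2 1.42.0 and limma voom were alternatives. The SE of a log2 value is its size divided by the square root of F. Values of single libraries use the scaling of the 24-library fit, and group means and expectations that of the fit named. The scripts were tested on simulated counts.

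In each direction of the log2 fits with 24 and 21 libraries and the linear fit with 24, the genes named are up to 10 called genes or, under 5 calls, the 5 with the smallest p; from each list, up to 3 called and the 2 most abundant members; and a panel of 25, of which the text gives those its accounts turn on. Other genes, including calls made only with 20 libraries or on the linear scale with 21, were chosen after their values were seen. Some genes that the rule names are not reported here. The members and lists were chosen with earlier results of these data known. The animals are separate rats, each with 1 library, so p-values measure the spread between animals and libraries together.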

Additional observations from a re-analysis of the deposited data

Results flagged for a closer look

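Of 296 groups of 6 libraries (1 gene in 1 group), 68 held a library whose gap to the nearest other, divided by the range of the group, exceeded Dixon's 95% critical value for 6. Chance gives about 1 such group in 20, and values within a library are not independent. Smoke 2, the shallowest library, accounted for 28: it had 0 counts, and so 0 CPM, of Klf10, Synpo, Gnao1, Lpar3, Ppil1, Gsdmd, Psmb3, Cd163, Ddit4, Sox18, Slc39a4, Rgcc, Gramd2, Fzd4, Srebf2, Hmgcs1, Pcna and Gpx2, where a count of 0 allows up to 159 CPM (3 counts, counting error only). Its other outlying values were 159 CPM of Arl6ip1, 424 CPM of Alb, 159 CPM of S100a8, 424 CPM of Sftpc, 53.0 CPM of Scgb1a1, 351617 CPM of Hbb, 153091 CPM of Hba1, 106 CPM of Lrp2, 4448 CPM of Fth1 and 212 CPM of Rb1. The library labelled silica 1 stood apart from its group with 59.8 CPM of Synpo, 4.11 CPM of Cxcl6, 58.01 CPM of S100a9, 3.197 CPM of Mmp12, 458 CPM of C3, 121 CPM of Chi3l1, 4345 CPM of Sftpc, 65.8 CPM of Ddit4, 321 CPM of Nfkbia, 126 CPM of Cebpd, 487 CPM of Cfb, 808 CPM of Cd74 and 0.457 CPM of Cyp1a1. The library labelled smoke 1 stood apart from its group with 34.7 CPM of Cxcl6, 10.6 CPM of Ccl7, 33.1 CPM of Spp1, 57.2 CPM of Mmp12, 50.9 CPM of Cfi, 651 CPM of Chia, 396 CPM of Chi3l1, 12.2 CPM of Kng1 and 45.0 CPM of Lpo. Air 6 stood apart from its group with 10.0 CPM of Cd163, 65.6 CPM of Lcn2, 9.63 CPM of Kng1, 461 CPM of Col1a1, 149 CPM of Hmgcs1, 96.7 CPM of Mki67, 0.205 CPM of Lpo and 28.7 CPM of Cyp1a1. The remaining outlying values were 2459 CPM of Scgb1a1 in air 1, 68.4 CPM of Nqo1 in air 2, 74.4 CPM of Nr4a1 in air 5, 53.8 CPM of Egr1 in air 5, 711 CPM of Chi3l1 in combined 3, 2.82 CPM of Cyp1a1 in combined 4, 63.0 CPM of Duox1 in combined 6, 51.1 CPM of Nr4a1 in combined 6, 28.7 CPM of Gnao1 in silica 4 and 50.2 CPM of Tinf2 in silica 4. Some of these flags rest on very few counts: 1 for Lpo in air 6, 1 for Cyp1a1 in silica 1 and 3 for Cyp1a1 in combined 4.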

How the results depend on the processing

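With 24 libraries the 0 log2 calls in each direction were also 0 under every scaling, filter, prior and threshold tried with edgeR, under limma voom and without any 1 library; DESeq2 gave 0 above and 1 below, and voom with quality weights 3 and 6. The 21-library log2 counts were 4 above and 17 below with DESeq2, 17 and 30 with quality weights, and ranged from 0 to 11 above and 0 to 8 below without 1 further library; leaving out air 6 gave 11 and 8, combined 4 gave 1 above, and silica 2 or combined 2 gave 1 below. With 20 libraries they ranged from 2 to 17 above and 0 to 21 below. Linear calls, 0 and 0 with 24 libraries, were 4 and 7 with 21 (0 and 0 on square roots, 2 and 5 with no trend in the prior, 0 to 14 and 0 to 8 without 1 further library) and 14 and 7 with 20 (2 to 24 and 2 to 15). Without silica 1, smoke 1 and smoke 2, silica minus air went from 287 higher and 135 lower to 815 and 799, and combined minus smoke from 742 to 1398 lower. The cause of these changes was not tested.

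Log2 interactions that changed sign against the 24-library value, none of them called, were the following. With 21 libraries they were Spp1 0.77, Mmp12 0.39, Cfi 0.52, Chia 0.21 and Fth1 0.025. With 20 libraries they were Spp1 0.40, Mmp12 0.64, C3 0.11, Cfi 0.66, Chia 0.23, Cyp1b1 -0.087, Col1a1 -0.54 and Fth1 0.18. DESeq2 gave Cfi 0.078, Chia 0.049 and Retnla -0.10. Voom gave Spp1 0.46, C3 0.21, Cfi 0.43, Chia 0.43 and Scgb1a1 0.45. Voom with quality weights gave C3 0.11, Cfi 0.38, Chia 0.32, Cyp1b1 -0.21, Col1a1 -0.44 and Fth1 0.082. Without any 1 of the 24 libraries the ranges were -1.16 to 0.24 for Ccl7, -0.77 to 1.07 for Spp1, -1.20 to 0.69 for Mmp12, -0.33 to 0.25 for C3 and -1.40 to 0.16 for Lcn2, each positive only without smoke 1. They were -0.33 to 0.80 for Cfi, -0.34 to 0.48 for Chia, -0.16 to 0.47 for Chi3l1, -0.52 to 2.04 for Retnla, -0.12 to 0.33 for Cyp1b1, -0.12 to 0.20 for Zbtb16 and -0.024 to 0.10 for Klf6. Kng1 (-0.30 to 2.29), Col1a1 (-0.37 to 0.68) and Mki67 (-0.019 to 0.92) were negative only without air 6, Cd163 (-0.00086 to 0.33) only without silica 2, and Fth1 (-0.29 to 0.077) was positive only without smoke 2.

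No paired analysis was possible because the groups share no animal numbers in the labels, and replicate numbers only name samples. At 53.0 CPM a count, smoke 2 gives no usable value for most genes named here.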
